A study of Mus musculus with 18 samples.

Results

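The acute phase proteins are plasma proteins that the liver makes in larger amounts during inflammation. The 10 genes described here were chosen by name from the deposited table of 54532 annotated genes: the serum amyloid A genes Saa1, Saa2, Saa3 and Saa4, haptoglobin (Hp), hemopexin (Hpx), the orosomucoids Orm1 and Orm2, lipocalin 2 (Lcn2) and serum amyloid P component (Apcs). All 10 had a mean of at least 1 FPKM (fragments scaled to gene length and library size) over the 18 mice and were among the 10216 genes tested. Liver RNA was sequenced from male C57BL/6J mice in 3 groups of 6 mice, which were 6 weeks old on arrival. Normal control (NC) mice ate a standard chow diet. HFD mice ate a high-fat diet for 14 weeks and stayed on it while they received saline. SZ-A mice ate the same high-fat diet for 14 weeks and stayed on it while they received SZ-A. SZ-A is an alkaloid extract of mulberry twig (Ramulus Mori), given for 6 weeks by the study's methods and 8 weeks by the sample labels. The dose and route for the sequenced mice are not given in the sources used here. All mice were fasted overnight before the livers were taken, and the labels do not say which mice shared a cage. The library NC6 is titled as a chow mouse but carries a diet label of high-fat diet, and it was kept in NC.

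In the acute phase response, cytokines released by macrophages at a site of injury or infection reach the hepatocyte. Interleukin 6 (IL-6) acts through the receptor chain gp130 (Il6st) and the transcription factor STAT3, and interleukin 1 and TNF act through NF-κB and C/EBP factors. Hepatocytes then secrete more of the positive acute phase proteins, and less of negative acute phase proteins such as albumin. Obesity and fatty liver are known for a weak, lasting form of this response.

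Each library held 17163191 to 20493907 fragments on genes, as worked back from the deposited values. The hepatocyte markers were high in every mouse, with albumin at 16117 to 37152 FPKM. The deposited values carried a further library factor per mouse of 0.9325 to 1.1414. Rescaling each mouse to a common sum moved the median log2 fold change of all tested genes from -0.03 to 0.15 for HFD against NC, and from 0.03 to -0.15 for SZ-A against HFD. It also moved the split of called genes from 1092 higher and 970 lower to 2100 and 334 in HFD against NC, and from 8 and 7 to 10 and 206 in SZ-A against HFD. The acute phase genes themselves took 0.969% to 1.48% of the summed FPKM of an NC mouse, 1.499% to 3.77% of that of an HFD mouse and 1.14% to 3.56% of that of an SZ-A mouse.

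The serum amyloid A genes lie side by side on chromosome 7. In the deposited positions (GRCm38), Saa3 spans chr7:46711998-46715700, Saa4 chr7:46727998-46732603, Saa1 chr7:46740497-46742980 and Saa2 chr7:46751790-46754313. Saa2 is on the plus strand and the other three are on the minus strand, so Saa1 and Saa2 are transcribed away from each other. Orm1 (chr4:63344560-63348163) and Orm2 (chr4:63362449-63365878) are also neighbours, both on the plus strand. Hp lies at chr8:109575128-109579172, Hpx at chr7:105591613-105600137, Lcn2 at chr2:32384633-32388252 and Apcs at chr1:172893961-172895041, all on the minus strand. All 10 are protein-coding genes.

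The promoters of 6 of these genes are shown: Saa1 and Saa2 as a near-identical pair, Saa4 as the member that varied apart from the rest, Orm2 and Lcn2 as genes with large differences between HFD and NC, and Apcs as the member with other motifs. Whether the promoter letters relate to the levels of these genes was not tested. Each is the 250 bases before the RefSeq transcription start (GRCm38.p6), read 5′ to 3′ on the gene's strand, and capitals mark a match to 1 of the motifs named after them. The RefSeq start of Lcn2 lies 513 bases inside the deposited gene.
Saa1 promoter, chr7:46742981-46743230 (- strand): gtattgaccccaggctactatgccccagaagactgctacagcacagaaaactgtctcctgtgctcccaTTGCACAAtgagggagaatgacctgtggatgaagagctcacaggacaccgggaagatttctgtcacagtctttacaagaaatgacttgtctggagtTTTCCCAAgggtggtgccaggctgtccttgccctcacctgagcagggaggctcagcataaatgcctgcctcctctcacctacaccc
Saa2 promoter, chr7:46751583-46751832 (+ strand): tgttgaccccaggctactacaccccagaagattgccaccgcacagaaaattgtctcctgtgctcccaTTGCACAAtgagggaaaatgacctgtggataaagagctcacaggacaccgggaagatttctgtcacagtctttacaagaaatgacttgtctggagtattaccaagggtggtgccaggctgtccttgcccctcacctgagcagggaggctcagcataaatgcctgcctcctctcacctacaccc
Saa4 promoter, chr7:46732604-46732853 (- strand): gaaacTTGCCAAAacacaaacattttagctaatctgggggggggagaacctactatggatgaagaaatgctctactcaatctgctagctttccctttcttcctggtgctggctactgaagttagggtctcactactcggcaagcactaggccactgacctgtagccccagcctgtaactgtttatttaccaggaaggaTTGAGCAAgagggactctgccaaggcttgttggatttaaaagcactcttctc
Orm2 promoter, chr4:63362199-63362448 (+ strand): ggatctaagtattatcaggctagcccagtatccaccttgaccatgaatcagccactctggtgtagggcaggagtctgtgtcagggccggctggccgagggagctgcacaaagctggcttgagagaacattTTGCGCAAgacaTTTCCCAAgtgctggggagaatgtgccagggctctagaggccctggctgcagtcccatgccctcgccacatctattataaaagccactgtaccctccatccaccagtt
Lcn2 promoter, chr2:32387740-32387989 (- strand): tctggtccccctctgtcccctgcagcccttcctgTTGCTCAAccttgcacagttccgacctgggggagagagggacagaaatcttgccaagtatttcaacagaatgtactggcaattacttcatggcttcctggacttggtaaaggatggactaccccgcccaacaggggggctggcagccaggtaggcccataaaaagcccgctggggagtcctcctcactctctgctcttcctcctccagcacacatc
Apcs promoter, chr1:172895055-172895304 (- strand): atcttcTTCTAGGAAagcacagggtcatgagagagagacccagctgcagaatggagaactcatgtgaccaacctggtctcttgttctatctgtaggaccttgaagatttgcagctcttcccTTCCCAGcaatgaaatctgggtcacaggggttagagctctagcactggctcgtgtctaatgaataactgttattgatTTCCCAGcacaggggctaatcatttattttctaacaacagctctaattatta

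The motifs searched on both strands were C/EBP (TTNNGNAA), STAT (TTCNNNGAA), the IL-6 response element (CTGGGAA) and NF-κB. The RefSeq table held 8 of the 10 genes and did not list Hp and Orm1. C/EBP letters were found in 7 of the 8 (Saa1, Saa2, Saa3, Saa4, Hpx, Orm2 and Lcn2), against 36.8% of 32851 promoters of the same length. Apcs alone held STAT letters, in its 5′ part, and IL-6 response element letters, at 2 places on the other strand. These letters were found in 7.0% and 9.1% of all promoters. NF-κB letters, in 7.3% of all promoters, were found in 0 of the 8. The windows of Saa1 and Saa2 were 94.8% identical, while the other pairs of windows were 45.7% to 54.5% identical when aligned. Saa1 held 2 C/EBP matches, and Saa2 held the first of them but not the second. A match is a description of the letters, not a binding site, and no motif match says only that these letters are not in this window.

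The acute phase genes were higher in the livers of HFD mice than in those of NC mice. Between SZ-A and HFD mice few genes of any kind passed the test, and 0 of these 10 did. A gene is called here at an adjusted p under 0.05 (limma, Benjamini-Hochberg over the 10216 genes) with a fold change over 1.2. In HFD against NC, 9 of the 10 genes were called higher, against 10.7% of all tested genes, and the remaining gene, Hp, had an adjusted p of 0.0945. Their median log2 fold change was 2.002, beside -0.03 over all tested genes. For 8 of the 10, every HFD mouse was above every NC mouse, against 5.48% of all tested genes. In SZ-A against HFD, 0 of the 10 were called, against 0.147% of all tested genes in either direction. With so low a share, 0 of 10 does not set the members apart from other genes. The study's own DESeq2 test, at the same thresholds, called more genes in this comparison and was not repeated here. Saa3 was the 1 gene with an unadjusted p under 0.05, against 14.8% of all tested genes. Voom on whole fragments also called 0 of the 10, against 0.303% of all tested genes. Log2 fold changes of the 10 were above 0 for 3 (Hpx, Orm1 and Apcs) and their median was -0.17, beside 0.03 over all tested genes. With a common sum per mouse, these 3 also lay below 0. In that setting 10 of the 10 were called higher in HFD against NC, against 20.6% of all tested genes, and 0 were called in SZ-A against HFD, against 2.11%. In SZ-A against NC, Saa4 and Lcn2 were called higher, which is 2 of the 10 against 5.31% of all tested genes, and the median log2 fold change was 1.45. The groups SZ-A and NC did not overlap for 1 gene, Saa4, against 2.83% of all tested genes. The comparisons share mice, since each group stands in 2 of them. In bulk liver, fewer cells of a type and less RNA per cell cannot be told apart. Nothing in the labels says more than that the 6 mice of a group are separate animals, and p-values measure the spread between them.

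**Figure D1:**
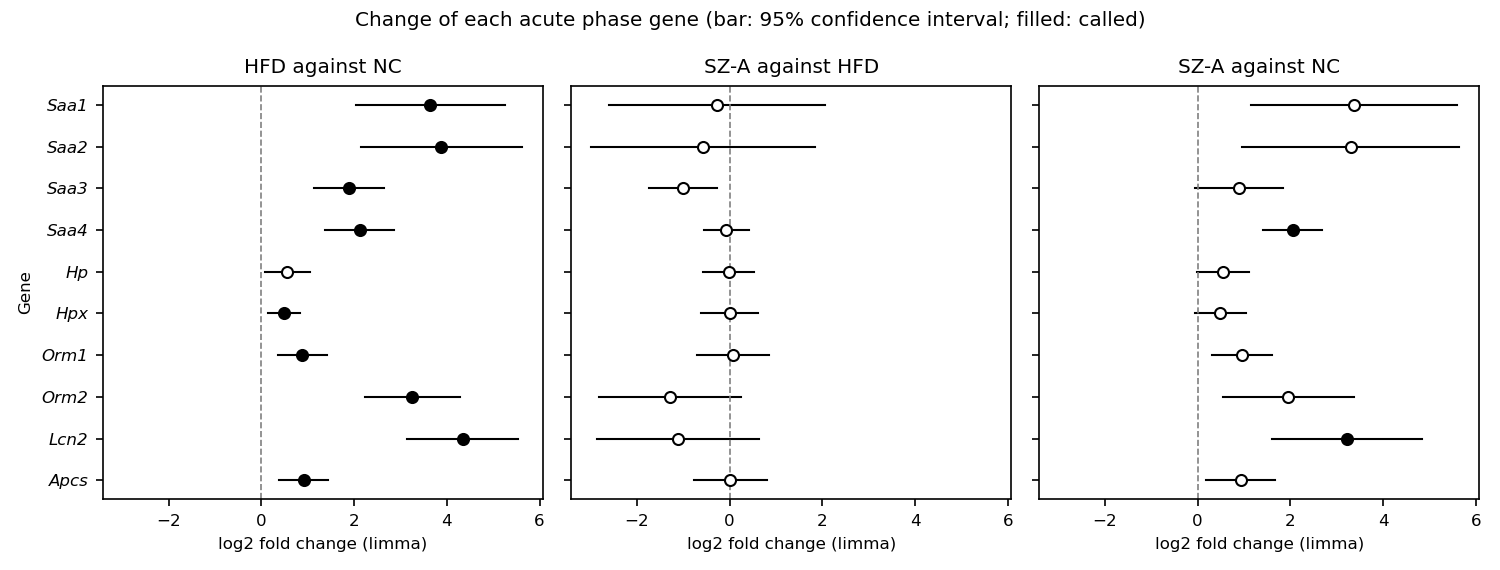
Log2 fold change of each acute phase gene (limma on log2(FPKM + 0.1), bars for the 95% confidence interval, filled points for called genes) in HFD against NC, SZ-A against HFD and SZ-A against NC. In HFD against NC all 10 points lie to the right of 0 and 9 are filled, in SZ-A against HFD none is filled, and in SZ-A against NC Saa4 and Lcn2 are filled.

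Saa1 and Saa2 encode the acute phase serum amyloid A proteins, which bind to high-density lipoprotein in plasma. Saa1 was at 3.21, 9.70 and 35.8 FPKM (lowest, median and highest of 6 mice) in NC, at 58.5, 87.6 and 1051 FPKM in HFD and at 8.68, 184 and 883 FPKM in SZ-A. All HFD mice were above all NC mice, while the SZ-A mice ran from within the NC range (SZ-A2 and SZ-A4) to near the highest HFD mouse. In HFD mice Saa1 rose 12.5-fold (log2 3.64, SE 0.74, limma adjusted p = 0.00435). Between SZ-A and HFD the log2 difference was -0.27 with a 95% interval from -2.59 to 2.05, which is a ratio of SZ-A to HFD anywhere from 0.166 to 4.14. Without HFD4 the log2 difference was 0.34, and without SZ-A4 it was 0.45. Saa1 differed 102-fold between the highest and the lowest SZ-A mouse.

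HFD4 and SZ-A5 were the highest mice of their groups for Saa2 as for Saa1, but the highest NC mouse was NC4 for Saa2 and NC1 for Saa1. Saa2 was at 0.843, 5.52 and 11.4 FPKM in NC, 28.2, 32.1 and 525 FPKM in HFD, and 2.72, 60.5 and 389 FPKM in SZ-A mice. Apart from HFD4, the HFD mice sat between 28.2 and 54.8 FPKM, whereas the SZ-A mice were spread over a 143-fold range. Saa2 rose 14.7-fold in HFD mice (log2 3.88, SE 0.80, limma adjusted p = 0.00460). Its log2 difference between SZ-A and HFD was -0.58 (95% interval -2.99 to 1.83), and 0.08 without HFD4 and 0.16 without SZ-A4. Saa1 made up 62.8% to 82.8% of the summed FPKM of Saa1 and Saa2 over the 18 mice. The longest coding mRNAs of Saa1 and Saa2 are 87.3% identical, and no stretch of 150 bases is shared exactly by both, but the counting of fragments that could fit either gene was not examined.

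Saa3 encodes a serum amyloid A that is made largely outside hepatocytes, among others in macrophages and adipocytes. It was the lowest of the 10 genes, at 0.460, 1.09 and 2.501 FPKM in NC, at 2.94, 4.36 and 6.87 FPKM in HFD and at 1.17, 1.68 and 5.27 FPKM in SZ-A. The fragments behind these values numbered 22 to 356 per mouse. All HFD mice were above all NC mice, and 4 of the 6 SZ-A mice were below the lowest HFD mouse. Saa3 rose 3.70-fold in HFD mice (log2 1.89, SE 0.35, limma adjusted p = 0.00244). Of the 10 genes it had the smallest p between SZ-A and HFD, at a log2 difference of -0.99 (SE 0.34, 95% interval -1.73 to -0.26), but the limma adjusted p was 0.199. SZ-A and NC mice differed by log2 0.89 (limma adjusted p = 0.224).

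Saa4 encodes the constitutive serum amyloid A of high-density lipoprotein, which is known to respond little in the acute phase. It stood at 18.02, 66.8 and 72.4 FPKM in NC mice, 142, 264 and 338 FPKM in HFD mice and 185, 237 and 263 FPKM in SZ-A mice. Here the SZ-A mice were the tightest group, with a 1.43-fold range, and neither the HFD nor the SZ-A group overlapped NC. The NC mouse at 18.02 FPKM was NC5, and the other NC mice lay between 62.2 and 72.4 FPKM. Saa4 rose 4.33-fold in HFD mice (log2 2.12, SE 0.35, limma adjusted p = 0.00111) and was 4.14-fold higher in SZ-A than in NC mice (log2 2.05, SE 0.29, adjusted p = 0.00176). The SZ-A and HFD groups differed by log2 -0.07, with a 95% interval from -0.55 to 0.42, the narrowest of the 10 genes.

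**Figure D2:**
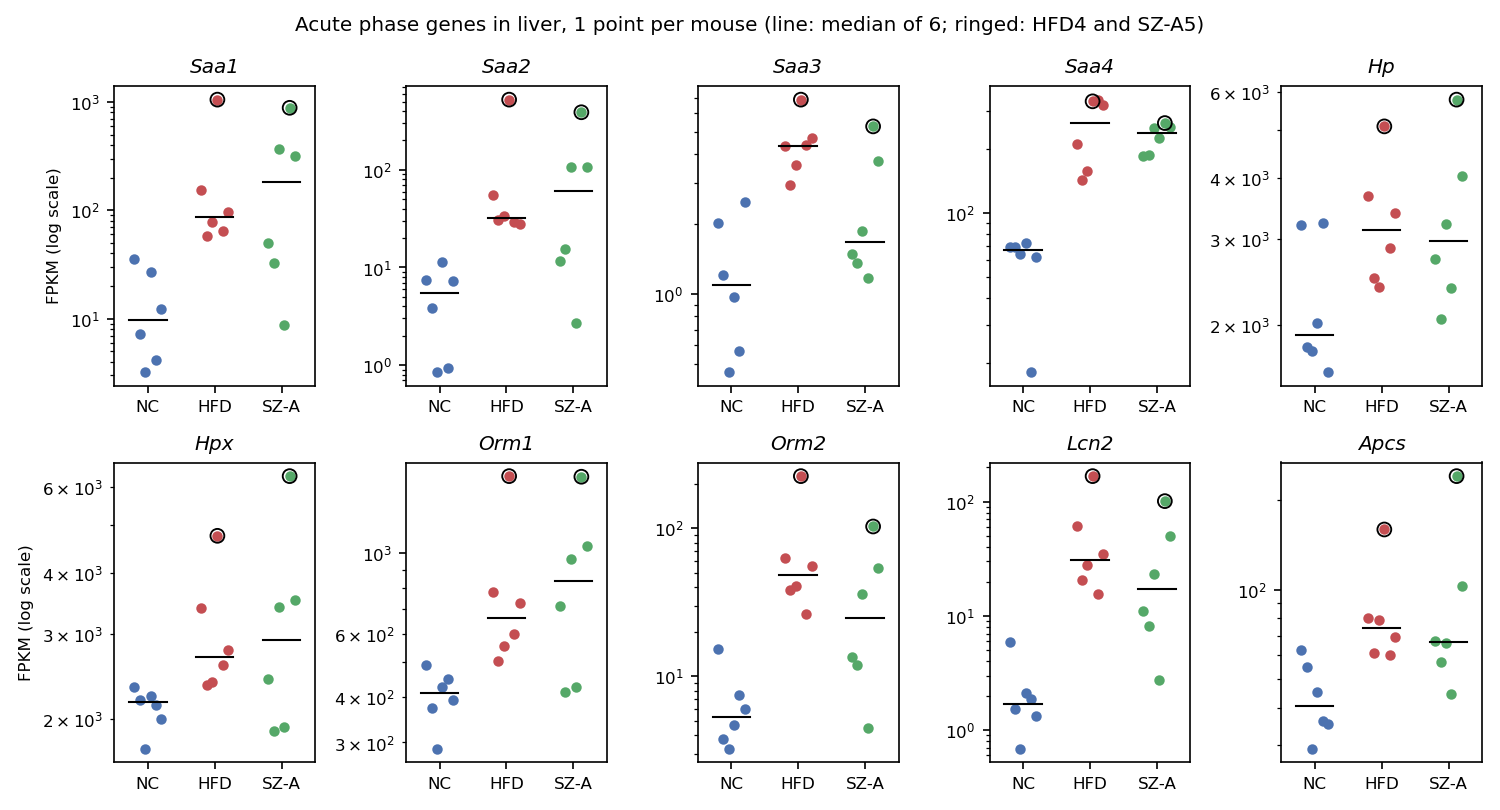
FPKM of the 10 acute phase genes on a log axis, 1 point per mouse and 6 mice per group (NC, HFD, SZ-A), with a line at the group median and rings around HFD4 and SZ-A5. Apart from Hp and Apcs, each HFD point lies above all NC points, and the ringed mice are the highest of their group in all panels but Saa4, where HFD4 is second.

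Haptoglobin and hemopexin are scavengers: Hp binds free hemoglobin and Hpx binds free heme, and both carry their ligand out of the blood. They were the most abundant of the 10 mRNAs. Hp was at 1604, 1912 and 3229 FPKM in NC, 2400, 3132 and 5093 FPKM in HFD, and 2064, 2977 and 5776 FPKM in SZ-A mice. The groups overlapped because NC1 and NC5, at 3205 and 3229 FPKM, lay above the HFD median. The log2 difference between HFD and NC was 0.56 (SE 0.22), with a limma adjusted p of 0.0945. Hpx was tight in NC mice, at 1740, 2168 and 2335 FPKM, and stood at 2357, 2685 and 4759 FPKM in HFD and at 1891, 2905 and 6309 FPKM in SZ-A mice. The lowest HFD mouse was just above the highest NC mouse, and the SZ-A mice spread to both sides of the HFD range. Hpx rose 1.40-fold in HFD mice (log2 0.49, SE 0.16) at a limma adjusted p of 0.0491, and without HFD4 the log2 difference was 0.35 and the adjusted p 0.0653. The call of Hpx was kept in 11 of 24 alternative settings, and was lost without any single one of the 6 NC mice, HFD1, HFD4 and HFD6. Hp was called in 3 of 24. Between SZ-A and HFD the log2 differences were -0.02 for Hp (95% interval -0.56 to 0.53) and 0.00 for Hpx (-0.61 to 0.62).

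Orosomucoids, or alpha-1-acid glycoproteins, bind drugs and lipids in plasma, and the mouse has 3 adjacent genes for them. Orm1 stood at 288, 410 and 492 FPKM in NC mice, 503, 664 and 1635 FPKM in HFD mice and 413, 840 and 1629 FPKM in SZ-A mice. Orm2 was far lower in NC, at 3.23, 5.33 and 15.2 FPKM, and reached 26.3, 48.0 and 225 FPKM in HFD and 4.49, 24.6 and 103 FPKM in SZ-A mice. For both genes every HFD mouse was above every NC mouse, whereas SZ-A2 and SZ-A4 were inside the NC range for both and SZ-A1 for Orm2. Orm1 rose 1.84-fold in HFD mice (log2 0.88, SE 0.25, limma adjusted p = 0.0224), and Orm2 rose 9.52-fold (log2 3.25, SE 0.48, adjusted p = 0.000616). The share of Orm2 in the summed FPKM of Orm1, Orm2 and Orm3 lay between 0.997% and 2.97% for NC mice, between 4.07% and 11.8% for HFD mice and between 1.03% and 5.86% for SZ-A mice, so the HFD and NC mice did not overlap in it. Between SZ-A and HFD, Orm2 differed by log2 -1.29 (95% interval -2.82 to 0.24, limma adjusted p = 0.421), the most negative value of the 10 genes, and Orm1 by 0.07 (-0.71 to 0.85). The longest coding mRNAs of Orm1 and Orm2 are 91.0% identical and share no stretch of 150 bases exactly.

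Lipocalin 2 takes iron away from bacteria by binding their siderophores, and is made by hepatocytes and by neutrophils. It was at 0.685, 1.70 and 5.92 FPKM in NC mice, 15.6, 31.2 and 168 FPKM in HFD mice and 2.76, 17.1 and 101 FPKM in SZ-A mice. All HFD mice were above the NC range, and among SZ-A mice only SZ-A4 was inside it. Lcn2 rose 20.2-fold in HFD mice (log2 4.34, SE 0.56, limma adjusted p = 0.000253), the largest fold change of the 10 genes. In SZ-A mice Lcn2 was 9.32-fold higher than in NC mice (log2 3.22, SE 0.75, adjusted p = 0.0172). The log2 difference between SZ-A and HFD was -1.12, with a 95% interval from -2.86 to 0.63 (adjusted p = 0.557).

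Serum amyloid P component is a pentraxin, the mouse counterpart in acute phase behaviour of the human C-reactive protein. Apcs was at 29.1, 40.6 and 62.8 FPKM in NC, 60.2, 74.2 and 159 FPKM in HFD, and 44.5, 66.5 and 241 FPKM in SZ-A mice. The highest NC mouse, NC1, lay above the lowest 2 HFD mice, HFD5 and HFD2. Apcs rose 1.88-fold in HFD mice (log2 0.91, SE 0.24, limma adjusted p = 0.0178), and with all 18 mice in one fit the adjusted p was 0.0542. SZ-A and HFD mice differed by log2 0.02 (95% interval -0.77 to 0.81).

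By level per kilobase, Hp and Hpx came first in each group, followed by Orm1, and Saa3 came last. In HFD mice the order of the means after Orm1 was Saa1, Saa4, Saa2, Apcs, Orm2, Lcn2 and Saa3. Every mouse had more Hp and Hpx than any mouse of its group had Orm1. Saa1 was the fourth in HFD and SZ-A mice and the sixth in NC mice by mean FPKM. Its HFD mean rests on HFD4, at 1051 FPKM beside 58.5 to 152 FPKM in the other HFD mice. By the HFD median, Saa1 (87.6 FPKM) was below Saa4 (264 FPKM). The neighbours Hp and Hpx overlapped in all 3 groups, as did Saa1 and Saa4 in HFD and SZ-A mice. The deposited gene lengths of Saa1, Saa2 and Lcn2 are 4.07, 3.86 and 2.87 times those of their longest coding transcripts, which lowers their FPKM. With that transcript length, Saa1 came above Orm1 in HFD and SZ-A mice, at group means of 1018 and 1125 on the FPKM scale against 799.9 and 866 for Orm1. That is an order of group means, which HFD4 and SZ-A5 raise (1051 and 883 FPKM of Saa1 before rescaling), not an order in each mouse. The use of transcript lengths, chosen after the data were seen, changes no fold change of a gene.

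The same mice were high or low for most of the genes. HFD4 was the highest HFD mouse for 9 of the 10 genes, all but Saa4, and SZ-A5 was the highest SZ-A mouse for all 10. Among the other SZ-A mice, SZ-A6 was among the top 3 for 10 genes and SZ-A3 for 9, while SZ-A4 was the lowest for 6 genes and SZ-A2 for 3. NC1 was the highest NC mouse for 6 genes and NC3 the lowest for 8. Without HFD4 and SZ-A5, 8 of the 10 genes were called in HFD against NC, 0 in SZ-A against HFD and 2 in SZ-A against NC. The shares of all tested genes in that setting were 8.56% called higher, 0.117% called in either direction and 6.53% called higher. Saa3 then differed between SZ-A and HFD by log2 -1.12 (limma adjusted p = 0.141). Leaving out SZ-A4 alone raised the number called in SZ-A against NC from 2 to 6, while the share of all tested genes called higher went from 5.31% to 4.75%.

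**Figure D3:**
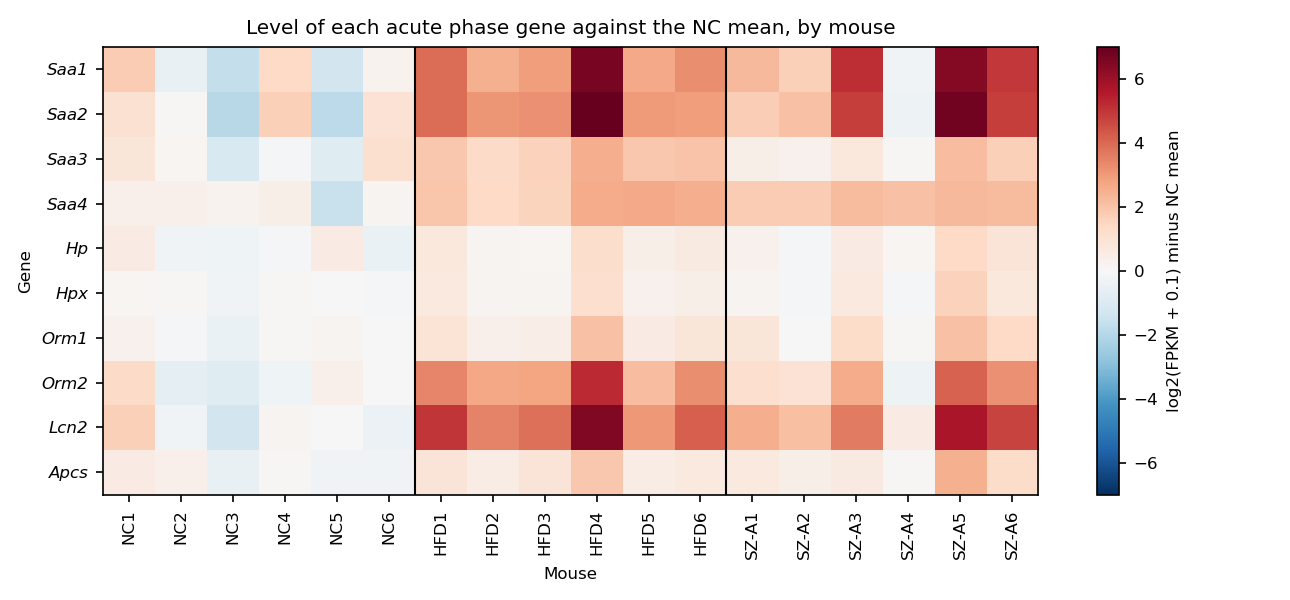
Log2(FPKM + 0.1) of each acute phase gene (vertical axis) in each of the 18 mice (horizontal axis) minus the mean of the 6 NC mice, with black lines between groups. HFD4 and SZ-A5 are the darkest columns, SZ-A4 is close to the NC columns for all genes but Saa4, and Saa4 runs from 142 to 338 FPKM over the HFD and SZ-A mice.

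Deviations of log2(FPKM + 0.1) from the group mean were correlated for the 45 pairs of genes over the 18 mice, with permutation p-values from shuffles within groups, adjusted over the 45 pairs. In the 36 pairs without Saa4, Pearson's r was 0.527 to 0.974 with a median of 0.858, and Spearman's rho was 0.437 to 0.955 with a median of 0.808. The permutation adjusted p was under 0.05 for 35 of the 36 by Pearson's r and for 34 by Spearman's rho. In the 9 pairs with Saa4, r was 0.063 to 0.503 with a median of 0.299, rho had a median of 0.342, and 3 and 2 pairs passed by r and rho. Saa1 and Saa2 had an r of 0.973, and Orm2 and Lcn2 an r of 0.974. Without the 2 mice farthest from the median of the first gene of each pair, the medians of r were 0.755 and 0.385 for pairs without and with Saa4, and without HFD4 and SZ-A5 they were 0.740 and 0.204. Within single groups, the median r of the pairs without Saa4 was 0.633 for NC, 0.935 for HFD and 0.933 for SZ-A mice, and that of the pairs with Saa4 was 0.036, 0.452 and 0.708. The difference between these medians was not tested.

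**Figure D4:**
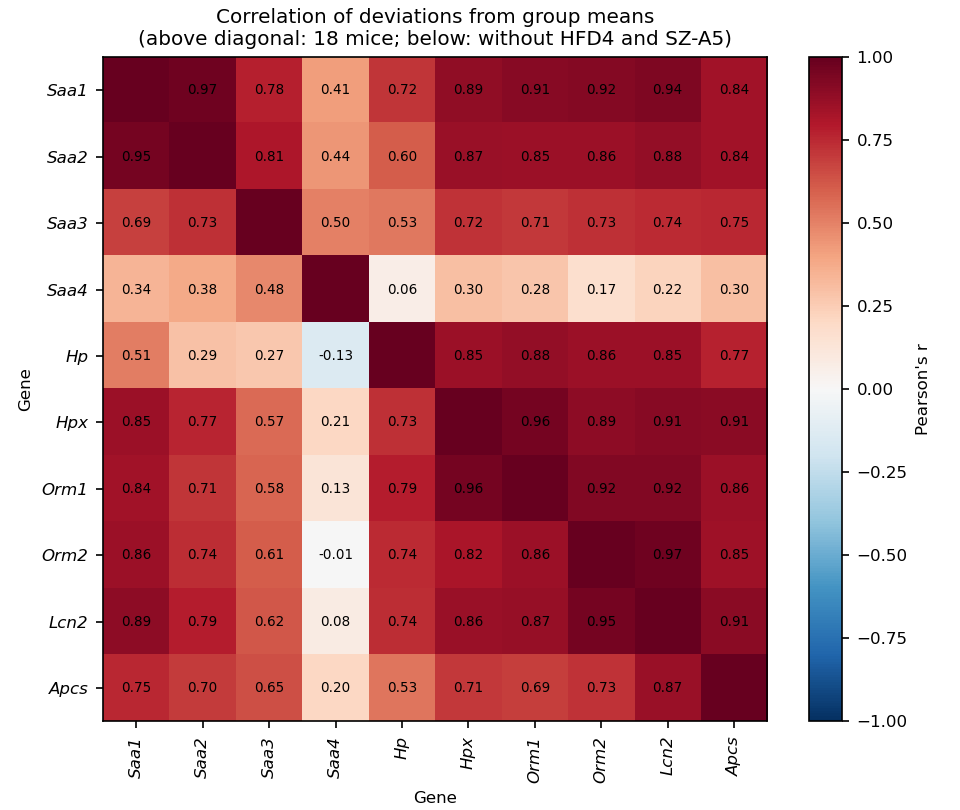
Pearson's r of the deviations from group means between the acute phase genes (both axes), over 18 mice above the diagonal and without HFD4 and SZ-A5 below it. The row and column of Saa4 are pale, with r from 0.063 to 0.503 over 18 mice, and the pairs without Saa4 run from 0.527 to 0.974.

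The genes outside the list whose deviations were most like those of a member are given with their Pearson's r over the 18 mice, as a description. For Saa1 they were Cyb561 (0.887), Cpb2 (0.876) and Itih4 (0.838), for Saa2 Cpb2 (0.909), Ifi27l2b (0.853) and Fam114a1 (0.832), and for Saa3 Cpb2 (0.853), Sppl3 (0.813) and Sept11 (0.810). Hp was nearest to Serpina3n (0.946), Lrg1 (0.911) and Lbp (0.902), and Hpx to Cyb561 (0.917), Fgl1 (0.889) and Itih4 (0.889). Serpina3n, Lrg1, Lbp, Itih4 and Fgl1 are themselves known acute phase genes. The genes nearest to Orm1 were Fgl1 (0.954), Lrg1 (0.941) and Itih4 (0.940), and those nearest to Orm2 were Cyb561 (0.924), Lrg1 (0.891) and Tnfrsf1a (0.864). Lcn2 had Cyb561 (0.921), Tnfrsf1a (0.897) and Lrg1 (0.895), and Apcs had Cyb561 (0.887), Glmp (0.857) and Tnfrsf1a (0.850). Saa4 shared none of its nearest genes with the other members: they were Herpud1 (0.956), a gene of the endoplasmic reticulum stress response, Bhlhe40 (0.911), a transcriptional repressor of the circadian system, and Gm15542 (0.910). For Saa4, NC5 lay far from the other NC mice, at 18.02 FPKM beside 62.2 to 72.4 FPKM. The nearest genes were not sought again without NC5, so they may rest on that mouse.

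In the other lists of genes from this pathway, the median log2 fold changes in HFD against NC lay nearer to 0 than that of the members. Members and lists were chosen with earlier results of these data known, so this is a description and not an independent comparison. Of 23 other positive acute phase genes tested, 7 were called higher (C4b, Cfb, Itih4, Orm3, Steap4, Il1rn and Lrg1) and 2 lower (Serpina3k and Hamp) in HFD against NC, with a median log2 fold change of 0.14. Over all tested genes, 10.7% were called higher and 9.49% lower. The call of Cfb was lost without any single one of 7 mice. Orm3, the third orosomucoid, rose by log2 3.10 (SE 0.47, limma adjusted p = 0.000735) and Steap4, a metalloreductase, by 2.17 (SE 0.29, adjusted p = 0.000337). Hamp, which encodes the iron hormone hepcidin, fell by 1.46 on the log2 scale (SE 0.35, adjusted p = 0.0112). Crp stood at 88.2 to 106 FPKM in NC, 80.6 to 119 FPKM in HFD and 84.0 to 154 FPKM in SZ-A mice and was not called, with a log2 difference of -0.06 in HFD against NC (adjusted p = 0.703). Crp was chosen after its values were seen, as the C-reactive protein gene. Of these 23 genes, 0 were called between SZ-A and HFD by limma and 3 had an unadjusted p under 0.05. Against NC, the SZ-A mice had C4b, Itih4, Orm3 and Steap4 called higher and Hamp lower, beside 5.31% and 4.3% of all tested genes.

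Of 12 negative acute phase genes, 4 were called lower (Apoa1, Rbp4, Fetub and Itih2) and 2 higher (Serpina6 and Cyp7a1) in HFD against NC, with a median log2 fold change of -0.20. The shares of all tested genes were 9.49% lower and 10.7% higher. The calls of Fetub and Cyp7a1 were each lost when 1 of several single mice was left out (6 and 9 of the 12). Apoa1, the main protein of high-density lipoprotein, fell by 0.91 on the log2 scale (SE 0.17, limma adjusted p = 0.00235). Itih2, an inter-alpha-trypsin inhibitor chain, fell by 0.87 (SE 0.10, adjusted p = 0.000173). Serpina6, which encodes corticosteroid-binding globulin, rose by 1.90 (SE 0.35, adjusted p = 0.00246). Between SZ-A and HFD, limma called 0 of the 12, with 6 at an unadjusted p under 0.05 and 10 of the 12 log2 differences above 0. Itih2 was also called lower in SZ-A than in NC mice.

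The inducing cytokines were low in these livers. Of 10, only Il1a, Il1b and Ctf1 reached a mean of 1 FPKM, and their log2 differences in HFD against NC were 0.10, 0.23 and 0.32 (limma adjusted p = 0.721, 0.764 and 0.238). Limma called 0 of the 3 in any comparison, and 0 had an unadjusted p under 0.05. The other 7 were too low to test. Tnf ran from 0 to 0.0970 FPKM in NC mice, from 0.0614 to 0.404 FPKM in HFD mice and from 0.0307 to 0.235 FPKM in SZ-A mice. HFD4 had the lowest Tnf of the HFD mice, below NC6, while the other HFD mice were above all NC mice, and SZ-A5 was at 0.209 FPKM. Il6 reached at most 0.109 FPKM in any mouse and was listed at 0 in NC1, NC4, HFD1, HFD3, HFD4, HFD6, SZ-A2 and SZ-A5. Clcf1 reached at most 0.561 FPKM, Osm 0.1001 FPKM, Lif 0.0789 FPKM and Il11 0.0530 FPKM, and Il22 was listed at 0 in all 18. Cytokines made in other organs and carried to the liver in blood are not measured here. Of 10 cytokine receptors tested, Il11ra1 fell by 0.47 on the log2 scale in HFD mice (SE 0.09, limma adjusted p = 0.00244) and 0 were called higher. The shares of all tested genes were 9.49% called lower and 10.7% called higher. Il1r1 and Il22ra1 differed by 0.96 and -0.69 (adjusted p = 0.118 and 0.150). Sigirr was called higher and Il22ra1 lower in SZ-A than in NC mice, in 1 and 2 of the 12 fits that left out a mouse.

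Among 18 signalling and transcription factor genes, Socs3 and Nfkb2 were called higher and Creb3l3 lower in HFD against NC, a share close to that over all tested genes (10.7% higher and 9.49% lower). The call of Creb3l3 was lost without any single one of 10 mice. Socs3, the feedback inhibitor of IL-6 signalling and a STAT3 target, stood at 1.72, 2.18 and 3.42 FPKM in NC, 2.65, 4.49 and 6.60 FPKM in HFD and 2.48, 4.49 and 10.5 FPKM in SZ-A mice. The mouse at 10.5 FPKM was SZ-A5, and HFD4 was at 5.64 FPKM. Socs3 rose by log2 0.87 (SE 0.22, limma adjusted p = 0.0136) and Nfkb2, an NF-κB subunit, by 0.64 (SE 0.12, adjusted p = 0.00291). Onecut1, a hepatocyte transcription factor, differed by 1.17 (adjusted p = 0.167). Socs3 and Cebpb were called higher in SZ-A than in NC mice, in 5 and 6 of the 12 fits that left out a mouse.

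The members' ligand partners and receptors had the highest median of these lists in HFD against NC, with 6 of 8 tested genes called higher (Lrp1, Hmox1, Cd36, Tlr2, Slc40a1 and Fcgr1) and a median log2 fold change of 0.77, beside 10.7% of all tested genes called higher. The calls of Lrp1 and Slc40a1 were each lost without any single one of 7 mice. Tlr2 and Fcgr1 had means under 1 FPKM in NC (0.832 and 0.921 FPKM). They passed the filter on the mean of all mice through HFD (2.22 and 2.28 FPKM) and SZ-A (1.22 and 1.63 FPKM). The count and the median of this list are therefore not independent of the filter. Cd36, a scavenger receptor for lipids that also binds serum amyloid A, stood at 10.9, 22.6 and 41.3 FPKM in NC, 77.6, 97.6 and 117 FPKM in HFD and 31.7, 37.4 and 78.1 FPKM in SZ-A mice. Only the highest SZ-A mouse reached the HFD range, and SZ-A5 was at 31.9 FPKM. Cd36 rose by log2 2.06 in HFD mice (SE 0.24, limma adjusted p = 0.000163) and was called lower in SZ-A against HFD, by -1.21 on the log2 scale (SE 0.20, adjusted p = 0.0382). That call was kept in 12 of 24 alternatives (adjusted p from 0.00107 to 0.294). Taken singly, leaving out SZ-A6, SZ-A4, SZ-A3 or SZ-A1 ended it, and so did leaving out HFD6, HFD4, HFD2 or HFD1. Tlr2, a receptor that serum amyloid A can activate, rose by 1.35 in HFD mice (SE 0.20, adjusted p = 0.000654), and Fcgr1, an Fc receptor that binds pentraxins, by 1.27 (SE 0.21, adjusted p = 0.00116). Compared with NC, Hmox1 and Fcgr1 were called higher in SZ-A mice, in 3 and 6 of the 12 fits that left out a mouse.

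**Figure D5:**
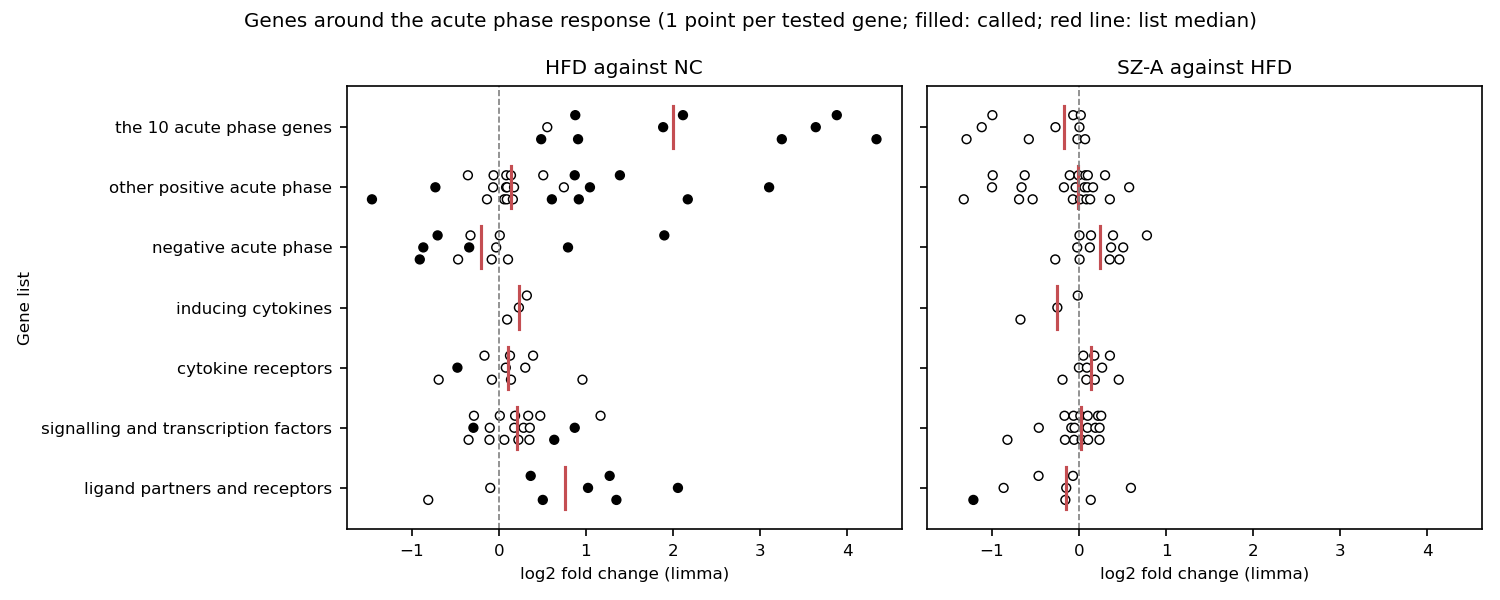
Log2 fold change (limma) of each tested gene, 1 point per gene, in the 10 acute phase genes and 6 lists around them, for HFD against NC and SZ-A against HFD, with filled points for called genes and a red line at the list median. In HFD against NC the members have a median of 2.002 and the ligand partners and receptors 0.77, while in SZ-A against HFD the only filled point is Cd36.

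Markers of other cells that can make Saa3 or Lcn2 also differed between the groups. Of 10 Kupffer cell and macrophage genes, 5 were called higher in HFD against NC (Adgre1, Cd68, C1qa, C1qb and Cd5l), against 10.7% of all tested genes. The summed level of the list was 172 to 306 FPKM in NC, 259 to 471 FPKM in HFD and 275 to 365 FPKM in SZ-A mice. Cd68 rose by log2 1.35 in HFD mice (SE 0.19, limma adjusted p = 0.000480), Adgre1 was higher by 0.88 (SE 0.27, adjusted p = 0.0339), and Marco differed by 1.27 (adjusted p = 0.120). Leaving out single mice ended the calls of Adgre1 (8 of the 12 mice), C1qa (5) and Cd5l (9). In SZ-A against HFD, Cd68 was called lower by -0.64 on the log2 scale (SE 0.11, adjusted p = 0.0451), a call kept in 11 of 24 alternatives (adjusted p from 0.0272 to 0.280). Leaving out any single one of SZ-A1, SZ-A4, SZ-A5 and SZ-A6, or of HFD1, HFD2, HFD3 and HFD4, ended it. In SZ-A against NC, Cd68 and C1qb were called higher, the former in 4 of 12 fits that left out a mouse, against 5.31% of all tested genes. Of 10 neutrophil genes 3 could be tested, and S100a8 and S100a9 were called higher in HFD against NC, beside 10.7% of all tested genes. They rose by log2 2.25 and 2.29 (SE 0.38 and 0.53, limma adjusted p = 0.00130 and 0.00870), with Retnlg at 1.38 (adjusted p = 0.0583). The filter is a mean over all mice, so a gene can pass it through the group where it is high. Retnlg, with means of 0.593 FPKM in NC and 0.989 FPKM in SZ-A, passed through HFD (1.66 FPKM). S100a8 had a mean of 0.812 FPKM in NC. The count of called genes among those tested is therefore not independent of the filter. The summed neutrophil list was at 1.56 to 7.36 FPKM in NC, 6.04 to 20.8 FPKM in HFD with HFD4 at 16.9, and 5.02 to 19.4 FPKM in SZ-A mice with SZ-A5 highest, while Ly6g was listed at 0 in all mice but HFD4 (0.214 FPKM) and HFD6 (0.202 FPKM), and Mpo reached at most 0.0161 FPKM. S100a8 and S100a9 were also called higher in SZ-A against NC, the latter in 5 of 12 fits that left out a mouse. The part of macrophages or neutrophils in the levels of Saa3 and Lcn2 was not tested.

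Of 6 adipocyte genes, Cfd and Fabp4 could be tested, and both were called higher in HFD against NC, beside 10.7% of all tested genes. They rose by log2 4.68 and 1.02 (SE 0.88 and 0.22, limma adjusted p = 0.00268 and 0.00526). The defining markers Adipoq and Plin1 reached at most 0.618 and 0.294 FPKM, both in NC mice. Their means in NC and HFD were 0.202 and 0.0913 FPKM for Adipoq and 0.0742 and 0.0126 FPKM for Plin1. Lep was listed at 0 in all NC mice and reached 0.225 FPKM in HFD4. The summed list was at 1.49 to 8.68 FPKM in NC, 24.2 to 138 FPKM in HFD with HFD4 lowest, and 2.62 to 33.6 FPKM in SZ-A mice with SZ-A5 at 4.15. Most of the HFD sum was Cfd, at 19.4 to 135 FPKM in HFD mice. Of 5 red blood cell genes, limma called 0 in any comparison, with 1 in HFD against NC and 3 in SZ-A against HFD at an unadjusted p under 0.05. The sums of that list overlapped, at 193 to 388 FPKM in NC, 151 to 310 FPKM in HFD and 235 to 471 FPKM in SZ-A mice. Hbb-bs, Hba-a1 and Alas2 differed in HFD against NC by log2 -0.43, -0.46 and 0.51 (adjusted p = 0.239, 0.201 and 0.0589). Of 7 hepatocyte genes, Apoa1, Cps1 and Tat were called lower in HFD against NC, beside 9.49% of all tested genes. Cps1 and Tat fell by 1.40 and 1.47 on the log2 scale (SE 0.16 and 0.28, limma adjusted p = 0.000152 and 0.00297), which is the opposite direction to the members. The summed hepatocyte list was at 37757 to 57006 FPKM in NC and 23499 to 41723 FPKM in HFD mice. Cps1 was also called lower in SZ-A than in NC mice.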

How the data were processed

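By the study's methods, mRNA was purified from total liver RNA with poly-T beads and sequenced as paired-end reads. The authors aligned the reads to the mouse genome (mm10, GRCm38) with HISAT2 2.0.5 and counted them with featureCounts 1.5.0-p3, per the submitters' processing notes. The authors deposited FPKM per gene and mouse. Their DESeq2 test was not repeated. Genes with a mean of at least 1 FPKM over the 18 mice were tested with limma 3.58.1 (R 4.3.3, lmFit and eBayes with trend) on log2(FPKM + 0.1), each comparison on its own groups without covariates. Fold changes are on that scale and understate the change of low genes. P-values were adjusted by Benjamini and Hochberg's method. The test was also run on simulated data, with genes drawn independently of each other and without the further library factor per mouse. That run therefore does not cover genes that vary together or the library factor. FPKM times gene length gave whole fragments in each mouse within a tolerance of 0.05 of a fragment, and these were used for depth and, as an alternative test of counts, for voom. No pair of mice in a group was a duplicate. The members and lists were chosen with earlier results of these data known. All members are named; of other lists, the genes called between SZ-A and HFD and the 3 with the largest absolute log2 fold change in HFD against NC, and for likeness the 3 genes with the highest r per member. Crp, Tnf, Il6, Clcf1, Osm, Lif, Il11, Il22, Ly6g, Mpo, Alb, Adipoq, Plin1 and Lep fall outside this rule and were named after their values were seen. Figures and summaries were made with Python 3.11.15, numpy 2.4.6, pandas 2.3.3 and matplotlib 3.10.9. Alternatives were pseudocounts of 1 and 0.01, filters, scalings, all 18 mice in one fit, no trend, sample weights, a replicate block, voom and each mouse left out. Leaving out HFD4 with SZ-A5 and the transcript lengths were chosen after seeing the data.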

Additional observations from a re-analysis of the deposited data

Results flagged for a closer look

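In 12 of the 30 sets of 6 mice (10 genes in 3 groups), the highest or lowest mouse stood apart from the others by Dixon's test at its 95% critical value. Chance alone gives about 1 such set in 20 for values with a normal spread, which FPKM values with a long upper tail do not have, and the genes share mice, so the 30 sets are not independent. On the log2 scale, chosen after the data were seen, 5 of the 12 stood apart: HFD4 for Saa1, Saa2, Orm1 and Apcs, and NC5 for Saa4. The values given next are in FPKM. HFD4 accounted for 6 of the 12. It was the highest HFD mouse for Saa1 (1051 FPKM), Saa2 (525 FPKM), Orm1 (1635 FPKM), Orm2 (225 FPKM), Lcn2 (168 FPKM) and Apcs (159 FPKM). SZ-A5 was the highest SZ-A mouse, beyond the same limit, for 3 genes, Saa2 (389 FPKM), Hpx (6309 FPKM) and Apcs (241 FPKM). Among NC mice, NC1 was the highest for Orm2 (15.2 FPKM) and Lcn2 (5.92 FPKM), and NC5 was the lowest for Saa4 (18.02 FPKM).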

How the results depend on the processing

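The number of members called in HFD against NC was 9. It was 4 with no filter on low values, where 54532 genes were tested and 1.15% called higher. With all 18 mice in one fit it was 7, against 11.3% of all tested genes called higher. Apcs (limma adjusted p = 0.0542) and Hpx (adjusted p = 0.155) were then not called. In SZ-A against NC it was 2, and it became 1 with no filter, 4 with all 18 mice in one fit and 7 with sample weights, while the share of all tested genes called higher went from 5.31% to 0.213%, 6.66% and 9.23%. Leaving out single mice gave 2 to 6, with 6 when SZ-A4 was left out (4.75% of all tested genes). In SZ-A against HFD it was 0 in every alternative run, where 0% to 2.28% of all tested genes were called in either direction. The labels number mice 1 to 6 in each group, but same-numbered mice did not deviate together (r from -0.12 to 0.29). With a replicate block, 9 members were called in HFD against NC, 0 in SZ-A against HFD and 2 in SZ-A against NC. The shares of all tested genes were 8.44% called higher, 0% called in either direction and 5.23% called higher. No gene was then called in SZ-A against HFD, so the calls of Cd36 and Cd68 were lost too (limma adjusted p = 0.123 and 0.130). The median r of the 36 pairs without Saa4 was 0.858, and 0.755 without the 2 farthest mice, 0.740 without HFD4 and SZ-A5 and 0.633 within NC.

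Changes of sign were seen in SZ-A against HFD, for 7 of the members. For Saa1 and Saa2 they came from leaving out HFD4 or SZ-A4, and for Saa1 also SZ-A2. With a common sum per mouse Hpx was at -0.173, Orm1 at -0.108 and Apcs at -0.158, and with median ratios Hpx was at -0.0178 and Apcs at -0.00234. Sample weights gave Hpx -0.0389, Saa4 0.0657 and Apcs -0.180, voom gave Hpx -0.0160 and Apcs -0.00246, and the fit without HFD4 and SZ-A5 gave Hpx -0.0754 and Apcs -0.0948. Leaving out single mice gave -0.88 to 0.45 for Saa1, -1.26 to 0.16 for Saa2, -0.212 to 0.0386 for Saa4, -0.19 to 0.12 for Hp, -0.21 to 0.14 for Hpx, -0.15 to 0.30 for Orm1 and -0.29 to 0.22 for Apcs. The cause of these changes was not tested. With 6 mice a group and the spread seen in SZ-A mice, the intervals of Saa1, Saa2, Orm2 and Lcn2 between SZ-A and HFD were wide.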
